A study of Arabidopsis thaliana with 4 samples.

Results

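The loci described here are the transposable element (TE) genes of chromosome 3 of Arabidopsis thaliana, taken in order along the chromosome. They were chosen by their identifiers alone, as entries of the deposited gene table that are marked as TE genes and carry a chromosome 3 locus number. The rule gave 877 loci of 38194 entries in the table, and of 3897 TE genes over all 5 chromosomes. Their small RNA counts, their read lengths and their difference between the 2 genotypes played no part in the choice. Names below are locus names without the suffix that marks a TE gene.

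The study behind these libraries concerns RPT2a, one of the ATPases at the base of the 26S proteasome, and its part in post-transcriptional gene silencing (PTGS) and the quality control of RNA. Small RNAs were sequenced from whole seedlings at 10 days after germination, from a line named PORI, which is the control, and from PORI combined with rpt2a, written here as PORI rpt2a. Values given for the controls or for the mutants are those of replicates 1 and 2 of PORI or of PORI rpt2a, in that order. Both groups therefore carry PORI, which the labels do not spell out, and neither is a plain wild type. Each group has 2 libraries, and whether these were grown apart is not in the labels. The p-values therefore describe the spread between libraries, which may be technical. Plants grew at 22 °C with 16 h light and 8 h dark on medium or soil, and the labels do not say which of these each library came from or which rpt2a allele was used.

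In plants, TE genes are annotated loci that encode, or once encoded, the proteins of retrotransposons and DNA transposons, and most of them lie in the compact heterochromatin around the centromeres. In heterochromatin they are kept silent mainly by DDM1 and the maintenance of DNA methylation through MET1, CMT2 and CMT3, while short elements and the edges of long ones depend more on RNA-directed DNA methylation. In that pathway RNA polymerase IV and RDR2 make double-stranded RNA, DCL3 cuts it into 24 nt small interfering RNAs (siRNAs), and AGO4 carries these to the locus. Transcribed TEs can also give 21 and 22 nt siRNAs, cut by DCL4 and DCL2 and linked to post-transcriptional silencing. In this annotation locus numbers rise from the top of the chromosome to the bottom, so the number gives the order of the loci but not their distance. The pericentromere is taken here as locus numbers from 29000 to below 46000, with the upper arm before it and the lower arm after it.

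The gene table held 4696170 and 4038459 counts in the controls against 4806891 and 2886928 in the mutants. The last library was the shallowest. It also stood apart in short reads of nuclear genes other than TE genes, of which 15.4% were 18 nt long, against 7.35 to 9.20% in the other 3 libraries. Small RNA reads of RPT2a itself numbered 27, 21, 38 and 8 in the order of libraries above, and such reads do not measure its mRNA, so they check nothing about the mutation. All 5 marker genes of green seedling tissue had counts, 44776, 33580, 39520 and 15765 in sum, and the 4 seed storage and 2 pollen markers summed to between 0 and 2 counts in any library. Both root markers were lower in both mutants, as were 29.6% of all genes tested. PYK10 had 21.7 and 25.9 TMM-normalised counts per 1000000 (CPM) in the controls against 15.4 and 15.6 in the mutants, with an edgeR adjusted p of 0.299. PBP1 had 19.6 and 26.9 against 13.5 and 12.5, with an edgeR adjusted p of 0.216. Small RNA reads do not measure the mRNA of a marker either, and the part of tissue make-up in the results below was not tested. These are whole-seedling libraries, in which fewer cells of a type and less RNA per cell cannot be told apart.

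The chromosome 3 TE genes were a small and uneven source of reads. They held 52045 and 35847 counts in the PORI libraries, or 1.11% and 0.888% of the gene table, and 85678 and 31439 counts in the PORI rpt2a libraries, or 1.78% and 1.09%. Of the 877 loci, 33 had no count in any library, and 644 passed the filter on low counts and were tested. The median locus had 105 counts over the 4 libraries, the 10 most abundant loci held 13.2% of the counts, and 95 loci were enough to hold 50% of them. No locus with at least 20 counts repeated the counts of another, although reads shared by similar copies could have been assigned to any of them. All 877 loci are annotated as pseudogenes in the reference table, and 8 have a symbol.

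Most of these reads came from around the centromere. The first locus by number was AT3G02515 and the last was AT3G62725. The pericentromere held 745 loci, or 84.9% of them, and 91.2% of their counts, while the upper arm held 83 loci and 5.26% of the counts, and the lower arm 49 loci and 3.58%. The longest stretch of locus numbers without a TE gene lay in the upper arm, from AT3G06940 to AT3G09165. In windows of 5000 locus numbers, the window from 30000 had 362 loci and 43.0% of the counts, and the window from 40000 had 284 loci and 36.2%. Between them, the window from 35000 had 7 loci and 1.18% of the counts.

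**Figure D1:**
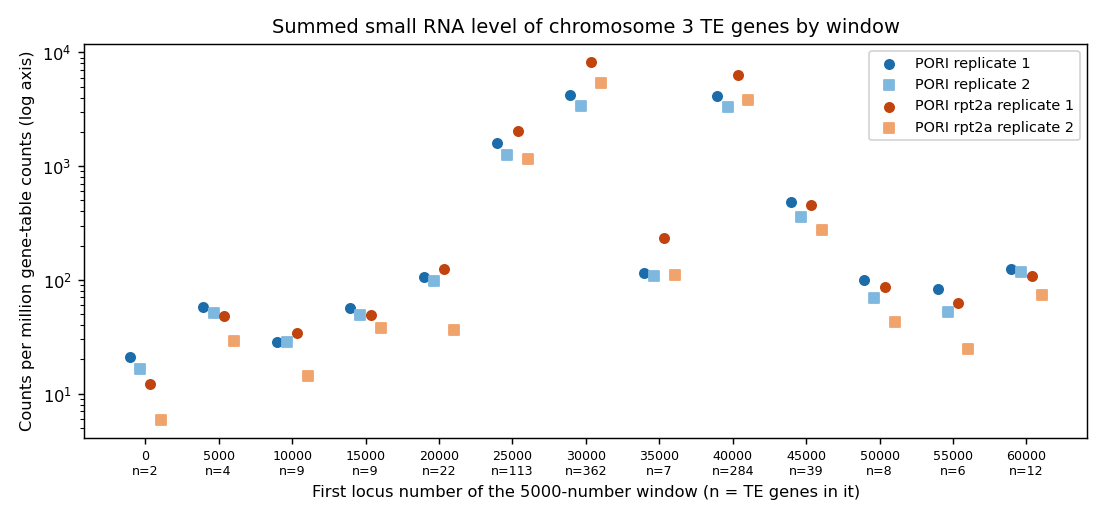
Summed small RNA counts of chromosome 3 TE genes per 1000000 gene-table counts, CPM (y axis, logarithmic) in windows of 5000 locus numbers (x axis), with 1 point per library. The windows from 25000, 30000 and 40000 stand above 1000 in every library, and in the window from 30000 both PORI rpt2a points, 8242 and 5326, lie above both PORI points, 4182 and 3354.

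Reads of 24 nt led the length profile in every library, with a larger share in PORI. The 24 nt share of the members' counts was 60.8% in PORI replicate 1, with a 95% Wilson interval of 60.3 to 61.2%, and 59.4% in replicate 2, with an interval of 58.9 to 59.9%. It was 54.6% in PORI rpt2a replicate 1, with an interval of 54.2 to 54.9%, and 45.8% in replicate 2, with an interval of 45.3 to 46.4%. Both mutant libraries were below both controls, and they differed from each other by more than the controls did. The group means were 60.1% ± 0.938 (SD, n = 2) in PORI and 50.2% ± 6.17 (SD, n = 2) in PORI rpt2a, a difference of -9.89 percentage points with an exact two-sided permutation p of 0.333. That is the smallest p that 2 against 2 libraries can give, so no value compared in this way can pass 0.05. These intervals take in the error of counting alone, because the reads carry no molecular identifiers and can be copies of 1 molecule.

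The share of 22 nt reads was higher in both mutant libraries. It was 13.8% and 14.2% in the controls against 19.9% and 25.7% in the mutants, with means of 13.97% ± 0.308 and 22.8% ± 4.07 (SD, n = 2 each) and an exact permutation p of 0.333. The 21 nt share was 5.51% and 5.83% in the controls against 7.75% and 9.73% in the mutants, with means of 5.67% ± 0.229 and 8.74% ± 1.40 (SD, n = 2 each) and the same exact p. Neither share overlapped between the groups. There were 4.42 and 4.19 reads of 24 nt for each read of 22 nt in the PORI libraries, and 2.74 and 1.79 in the mutant libraries. Without PORI rpt2a replicate 2, the differences were -5.52 percentage points for 24 nt, 5.92 for 22 nt and 2.09 for 21 nt. That library, in which the differences were larger, was also the shallowest and the richest in 18 nt reads of other genes, and the part of depth or of short fragments in the result was not tested. Reads of 23 nt were more frequent than 22 nt reads in the controls and less frequent in the mutants. They were 14.6% and 14.8% of the counts in the controls against 11.9% and 11.7% in the mutants.

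**Figure D2:**
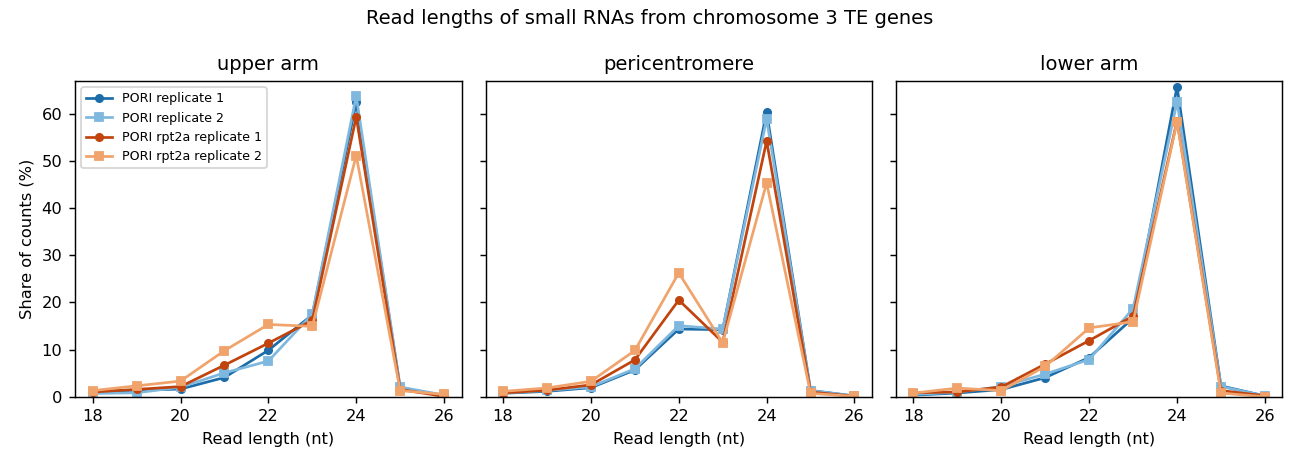
Share of counts (y axis, percent) by read length from 18 to 26 nt (x axis) for chromosome 3 TE genes of the upper arm, the pericentromere and the lower arm, with 1 line per library. All lines peak at 24 nt, and in the pericentromere the 22 nt share is 14.4% and 15.1% in PORI against 20.5% and 26.3% in PORI rpt2a.

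Lengths also differed in level, when counts were expressed per 1000000 gene-table counts (gene-table CPM), a measure that is still relative to each library's total. The 22 nt level of the members was 1524 and 1260 CPM in the controls against 3546 and 2794 in the mutants, a log2 difference of 1.18. The 21 nt level was 610 and 518 in the controls against 1382 and 1060 in the mutants, a log2 difference of 1.11. Both lengths were higher in both mutant libraries, each with an exact permutation p of 0.333. The 24 nt level was 6734 and 5276 in the controls against 9727 and 4993 in the mutants, so the groups overlapped, with a log2 difference of 0.23 and an exact permutation p of 1. Summed over lengths, the level was 11082 and 8876 in the controls against 17824 and 10890 in the mutants, with overlapping groups, a log2 difference of 0.49 and an exact permutation p of 0.667. That difference was 0.13 without PORI rpt2a replicate 1 and 0.85 without replicate 2. With TMM-scaled library sizes, which take most genes as equal between libraries, the same sums were 9183 and 8842 in the controls against 15660 and 15777 in the mutants. They then no longer overlapped, and the log2 difference was 0.80 with an exact permutation p of 0.333.

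The higher level in the mutant libraries lay in the pericentromere. The summed level there was 9774 and 7806 CPM in the controls against 16594 and 10284 in the mutants, a log2 difference of 0.58 with no overlap, which was 0.24 without PORI rpt2a replicate 1 and 0.93 without replicate 2. In the upper arm it was 753 and 669 in the controls against 741 and 343 in the mutants, a log2 difference of -0.49 with overlapping groups. In the lower arm it was 555 and 401 in the controls against 489 and 263 in the mutants, a log2 difference of -0.40, again with overlap. Both arm differences rested on PORI rpt2a replicate 2, without which they were 0.06 and 0.05. With TMM-scaled sizes the 3 zones gave 0.89 in the pericentromere, -0.18 in the upper arm and -0.08 in the lower arm.

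A comparison of zones within a library does not depend on how libraries are scaled. The pericentromere's share of the members' counts was 88.2% and 87.9% in the controls against 93.1% and 94.4% in the mutants, with means of 88.1% ± 0.176 and 93.8% ± 0.940 (SD, n = 2 each). The log2 ratio of pericentromere to arm counts was 2.90 and 2.87 in the controls against 3.75 and 4.08 in the mutants. The groups did not overlap, and the ratio differed by 1.03 on the log2 scale with an exact permutation p of 0.333. Leaving out each library in turn gave differences from 0.87 to 1.20. A narrower zone, from 31000 to below 45000, which counts the loci at both borders with the arms, gave 0.35, so the size of the contrast depended on where the zone was set.

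Within the pericentromere the difference between genotypes was not even. The window from 30000 had a log2 difference of 0.82, and the window from 40000, with 4147 and 3335 CPM in the controls against 6309 and 3772 in the mutants, had 0.39 with overlapping groups. The window from 25000, which spans the border, had 1581 and 1240 in the controls against 2054 and 1144 in the mutants, a log2 difference of 0.13. Among windows of 1000 locus numbers with at least 20 members, the highest was from 31000, with 510 and 373 CPM in the controls, 1170 and 904 in the mutants and a log2 difference of 1.24. The windows from 32000 and 33000 had 0.82 and 0.79, and that from 43000, where the groups overlapped, had 0.23. In the 8 windows that lie wholly in the arms, from 0, 5000, 10000, 15000, 20000, 50000, 55000 and 60000, every log2 difference was below 0, from -1.13 to -0.29, in sums of at most 125 CPM, and in 4 of the 8 the groups overlapped. In those from 10000, 20000 and 50000 the sign rested on PORI rpt2a replicate 2. Replicate 1 had 33.9 CPM against 28.3 and 28.5 in the controls from 10000, and 125 against 106 and 97.8 from 20000. From 50000 it had 85.7 against 98.8 and 69.6, above the controls' mean on the log2 scale.

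The shift in the shares of read lengths was seen in every zone, but the 22 nt level was higher without overlap only in the pericentromere. There it was 1404 and 1177 gene-table CPM in the controls against 3403 and 2703 in the mutants. It was 74.3 and 50.8 against 84.3 and 52.7 in the upper arm, and 46.2 and 31.7 against 58.2 and 38.4 in the lower arm. The 22 nt share in the upper arm was 9.86% and 7.59% in the controls against 11.4% and 15.3% in the mutants. In the lower arm that share was 8.33% and 7.91% in the controls against 11.9% and 14.6% in the mutants. The arms had lower 22 nt shares than the pericentromere in all 4 libraries, and in each zone both mutant libraries were above both controls. The 24 nt share of the pericentromere minus that of the arms was -3.46 and -4.41 percentage points in the controls against -4.78 and -8.91 in the mutants, a difference of -2.90 with an exact permutation p of 0.333. This contrast was not stable, since it was -0.84 without PORI rpt2a replicate 2 and 1.83 with the narrower zone.

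Locus by locus, most tested members had a higher normalised count in PORI rpt2a, but none passed the threshold. In edgeR's quasi-likelihood test on counts of all lengths, 466 of 644 tested members, or 72.4%, had a log2 fold change of PORI rpt2a over PORI above 0. Their median was 0.57, against -0.04 over all 8110 genes tested, of which 48.6% were above 0. At an adjusted p of 0.05 (edgeR, Benjamini-Hochberg over all genes) 0 of 644 members passed, where 0.0247% of all genes did, and the smallest adjusted p of a member was 0.0686. At an unadjusted edgeR p under 0.05 there were 230 members, or 35.7%, against 23% of all genes, and 213 of the 230 were higher in PORI rpt2a. DESeq2 called 70 members at the same adjusted threshold, or 12.8% of the 549 to which it gave an adjusted p, against 7.45% of all genes with one, and all 70 were higher in the mutants.

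Counts made without a model leaned the same way. In TMM-normalised CPM, which are used from here on for single loci, 330 of the 644 tested members, or 51.2%, were higher in both PORI rpt2a libraries than in both PORI libraries, against 27.5% of all genes tested. Another 91 members, or 14.1%, were lower in both, against 29.6% of all genes. The remaining 223 overlapped.

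By zone, the members above 0 in the edgeR fit were 443 of 571 in the pericentromere, 12 of 44 in the upper arm and 11 of 29 in the lower arm. The medians were 0.71, -0.33 and -0.22 in the same order. Without PORI rpt2a replicate 1 they were 0.52, -0.61 and -0.60, and without replicate 2 they were 0.83, -0.12 and -0.11. Leaving out replicate 1 moved both arm medians by more than the pericentromere's, and leaving out replicate 2 did so for the upper arm only. Genes of chromosome 3 that are not TE genes had medians of -0.15 in the pericentromere over 180 genes, -0.34 in the upper arm over 523 and -0.26 in the lower arm over 269. In the pericentromere 77.6% of TE genes and 46.7% of other genes were above 0. In the upper arm the order of TE genes and other genes depended on the library, with medians of -0.61 and -0.37 without PORI rpt2a replicate 1 and of -0.12 and -0.36 without replicate 2. For 22 nt reads alone the TE gene medians were -0.70 and -0.47 in the upper and lower arm over 9 and 8 loci, and those of other genes -1.23 and -1.03. Scaled to the total of the 3 tables, these medians were 0.18 and 0.41 for TE genes and -0.35 and -0.17 for other genes. The sign of the TE gene medians for 22 nt in the arms thus depended on the scaling. Members higher in both mutant libraries were 321 of 571 pericentromere loci, 6 of 44 upper arm loci and 3 of 29 lower arm loci. Those lower in both were 59, 23 and 9 of the same loci. Over all genes tested 27.5% were higher in both and 29.6% lower in both, and the lower arm's 9 of 29 was near the latter. Across the alternative fits the share of pericentromere members above 0 ranged from 65.8% to 82.1%, except where the fit was restricted to TE genes. That fit sets the typical TE gene near 0, and gave 55.2% above 0 in the pericentromere, 9.30% in the upper arm and 10.3% in the lower arm.

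**Figure D3:**
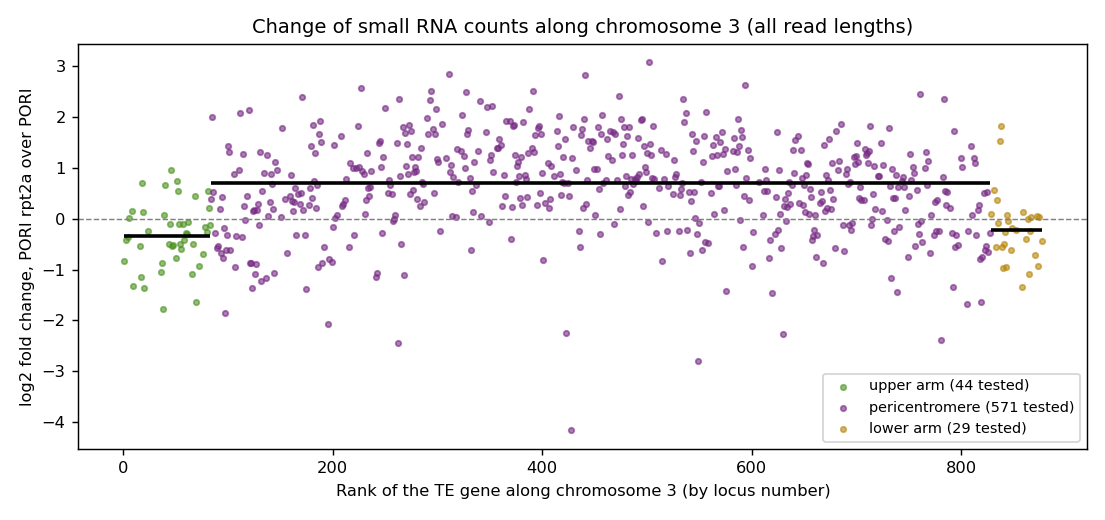
Log2 fold change of PORI rpt2a over PORI from edgeR (y axis) for the 644 tested TE genes, in order along chromosome 3 (x axis, rank by locus number), coloured by zone, with black lines at the zone medians. The pericentromere median is 0.71, and the medians of the upper and lower arm are -0.33 and -0.22.

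Tests within a read length gave no call at the adjusted threshold. For 21 nt reads, 0 of 119 tested members passed in edgeR at an adjusted p of 0.05, as did 0% of all genes, and the smallest adjusted p was 0.0888. Of the 119, 107 were above 0 with a median log2 fold change of 1.02, against -0.10 over all genes, and 48 had an unadjusted edgeR p under 0.05, or 40.3% against 33.9% of all genes. All 48 were higher in PORI rpt2a. For 22 nt reads, 0 of 252 passed, as did 0% of all genes, with a smallest adjusted p of 0.0633 in edgeR. There 190, or 75.4%, were above 0 with a median of 0.49, against 51.0% and 0.03 over all genes. Of the 252, 58 had an unadjusted edgeR p under 0.05, or 23.02% against 34% of all genes. This share was below that background, which takes in the TE genes of all 5 chromosomes. For 24 nt reads, 0 of 566 passed, as did 0% of all genes, with a smallest adjusted p of 0.0767 in edgeR. There 382, or 67.5%, were above 0 with a median of 0.45, against 48.3% and -0.05 over all genes. Of the 566, 156 had an unadjusted edgeR p under 0.05, or 27.6% against 28.3% of all genes.

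These fits are scaled within each read length, so a shift shared by most genes tested, TE genes included, is removed from them. For 22 nt the 2001 genes tested took in 252 members and 179, 196, 237 and 243 TE genes of chromosomes 1, 2, 4 and 5. Summed 22 nt reads of nuclear genes other than TE genes differed by 0.06 on the log2 scale in gene-table CPM. With library sizes set to the total of the 3 tables, the median of all genes moved from 0.03 to 0.90 for 22 nt, from -0.10 to 0.36 for 21 nt and from -0.04 to -0.25 for all lengths. The members' median minus that of all genes moved less, from 0.46 to 0.46 for 22 nt, from 1.12 to 1.13 for 21 nt and from 0.61 to 0.63 for all lengths. With that scaling edgeR called 97 members for 22 nt and 18 for 21 nt, all higher in PORI rpt2a. The same scaling gave calls for 26.3% and 10.1% of all genes.

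The length shift was also present in single loci. Of 450 members with at least 100 counts over the 4 libraries, 236, or 52.4%, had a higher 22 nt share in both PORI rpt2a libraries than in both PORI libraries, and 20 had the opposite. Over all entries of the gene table with as many counts the figure was 35.5%. A higher 21 nt share in both was found for 165 members, or 36.7%, against 28% of all such entries, and a lower 24 nt share in both for 199 members, or 44.2%, against 35.4%. The median differences per locus were 5.80 percentage points for 22 nt, 2.19 for 21 nt and -7.53 for 24 nt. In the pericentromere 210 of 394 such members had the higher 22 nt share, in the upper arm 13 of 34 and in the lower arm 13 of 22. The upper arm was thus near the 35.5% of all such entries. For 21 nt the counts were 148, 12 and 5 of the same members, the last below the 28% of all such entries.

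Even so, 24 nt was the leading length at most loci in every library. Reads of 24 nt were the most frequent class in 446 and 442 of the 450 members in the PORI libraries, and in 449 and 390 in the PORI rpt2a libraries. Members with more 22 nt than 24 nt reads numbered 0 and 2 in PORI, 0 in PORI rpt2a replicate 1 and 41 in replicate 2. No member had more 22 nt than 24 nt reads in both mutant libraries, so this count belonged to 1 library, which was also the shallowest.

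The most abundant member, AT3G43730 in the pericentromere, was not higher in both mutant libraries. Its CPM was 516 and 471 in the controls against 537 and 301 in the mutants, and the groups overlapped. It held 4.08% of the members' counts, with a 24 nt share of 66.2% over the 4 libraries, and its log2 fold change was -0.24 ± 0.43 (SE) with an edgeR adjusted p of 0.777. Without PORI rpt2a replicate 2 the fold change was 0.13. Its 22 nt share was 11.9% and 10.9% in the controls against 14.4% and 13.2% in the mutants, a smaller shift than the summed members showed. Locus lengths were not used, so the abundance of a locus is not a level per length and depends on its size.

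The other 9 of the 10 most abundant members were all higher in both mutant libraries, against 27.5% of all genes tested. The ranking uses the mean CPM of all 4 libraries, so this count is not independent of the difference between groups. AT3G42052, with a PORI mean of 55.6 CPM and lower in both mutant libraries, was not among the 10, while AT3G29076, with a PORI mean of 45.1, was. AT3G31970 had 67.8 and 65.4 CPM in the controls against 183 and 478 in the mutants, a log2 fold change of 2.31 ± 0.53 (SE) with an edgeR adjusted p of 0.0782. Its 22 nt share was 20.6% and 23.4% in the controls against 30.0% and 38.3% in the mutants, and in the last library it exceeded the 24 nt share of 35.3%. AT3G29076 had 45.0 and 45.1 CPM in the controls against 110 and 250 in the mutants, a log2 fold change of 2.00 ± 0.47 (SE). For both loci the mutant libraries differed more from each other than the controls did, and leaving out PORI rpt2a replicate 2 gave 1.47 and 1.30. AT3G31630 had 54.3 and 41.7 CPM in the controls against 137 and 169 in the mutants, a log2 fold change of 1.67 ± 0.33 (SE), and AT3G43355 had 75.2 and 68.3 against 175 and 227, a log2 fold change of 1.48 ± 0.33 (SE). AT3G29510, AT3G29615, AT3G42996, AT3G33178 and AT3G32893 had log2 fold changes of 1.31, 1.27, 1.14, 0.93 and 0.88. All 10 lie in the pericentromere.

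The largest positive fold changes among members whose groups did not overlap were mostly in sparse loci. AT3G33189 had 4 and 16 counts in the controls against 34 and 66 in the mutants, a log2 fold change of 3.08 ± 1.06 (SE) that moved from 1.54 to 4.71 as each library was left out. AT3G31390 had 4 and 2 counts against 13 and 16, and AT3G33008 had 7 and 2 against 25 and 19, with log2 fold changes of 2.85 and 2.84. AT3G42436 had 14 and 12 counts against 70 and 43, a log2 fold change of 2.63 ± 0.47 (SE). AT3G30710 was the best covered of the 5, with 62 and 34 counts in the controls against 229 and 150 in the mutants. Its CPM was 10.9 and 8.39 against 41.9 and 75.3, a log2 fold change of 2.58 ± 0.41 (SE) with an edgeR adjusted p of 0.0686, equal to the smallest of any member. Its 22 nt share was 17.7% and 5.88% in the controls against 30.6% and 34.0% in the mutants, and its 24 nt share was 62.9% and 82.4% against 40.2% and 37.3%.

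The largest negative fold changes were in loci with few reads left in the mutant libraries. AT3G32912 had 17 and 11 counts in the controls against 1 and 0 in the mutants, and AT3G42186 had 16 and 12 against 3 and 0, too few for a fold to be given. AT3G43828 had 82 and 51 counts in PORI, 23 in PORI rpt2a replicate 1 and 0 in replicate 2, and its 21 nt share of 26.9% was the highest of the 450 better covered members. AT3G30803 had 55 and 19 counts against 8 and 2, a log2 fold change of -2.45 ± 0.60 (SE). AT3G42658, named SADHU3-2, had 31 and 15 counts against 5 and 2, a log2 fold change of -2.26 ± 0.55 (SE). All 5 lie in the pericentromere, among neighbours of which most were higher in PORI rpt2a, and none had an edgeR adjusted p under 0.0708.

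**Figure D4:**
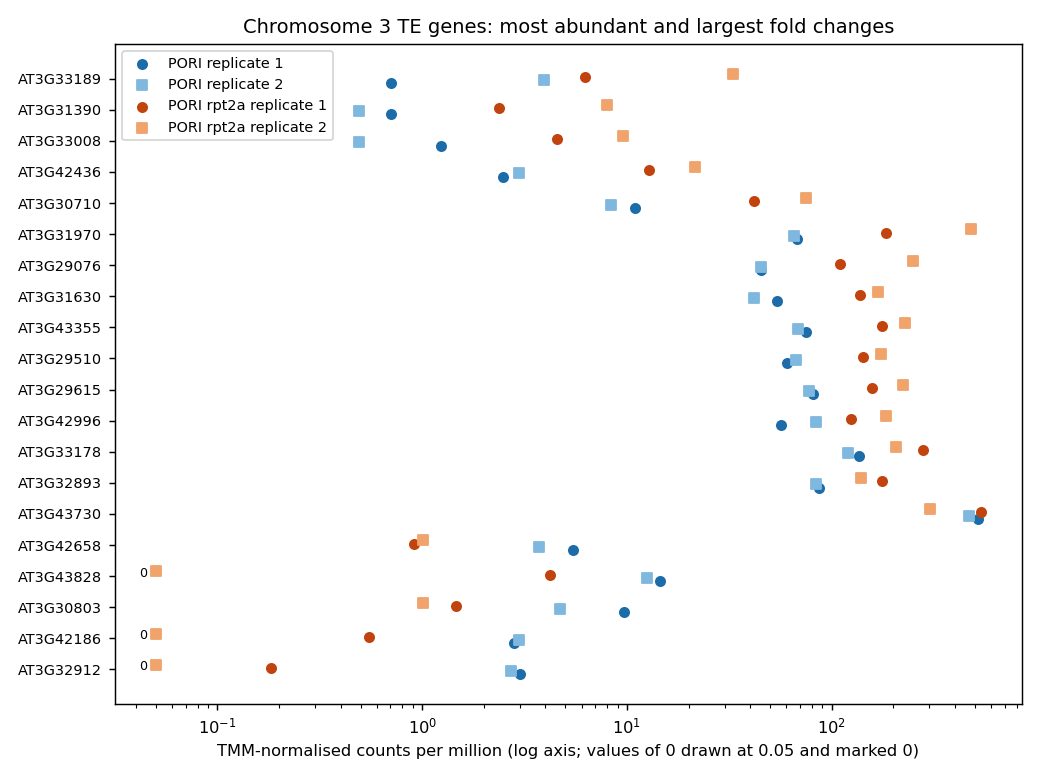
TMM-normalised CPM (x axis, logarithmic) in each library for the 10 most abundant chromosome 3 TE genes and for the 5 largest positive and 5 largest negative fold changes among members whose groups do not overlap (y axis, ordered by fold change). For AT3G43730 the points overlap between 301 and 537, while AT3G31970 runs from 65.4 and 67.8 in PORI to 183 and 478 in PORI rpt2a.

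Members differed widely in read length. The highest 24 nt shares over the 4 libraries were 80.7% in AT3G29187, 78.4% in AT3G46382 of the lower arm, 75.7% in AT3G43370, 75% in AT3G43205 and 73.9% in AT3G42052. In none of these 5 was a higher CPM found in both mutant libraries, and AT3G29187, the best covered, had 64.8 and 43.4 CPM in the controls against 58.3 and 14.6 in the mutants. The highest 22 nt shares were 35.6% in AT3G33555, 35.2% in AT3G29076, 33.7% in AT3G30751, 33.5% in AT3G33081 and 32.3% in AT3G30436. All 5 were higher in both mutant libraries, with log2 fold changes of 1.36, 2.00, 2.18, 1.72 and 1.92. These shares include the mutant libraries, so they are not independent of the difference between groups.

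The members richest in 21 nt reads after AT3G43828 were AT3G42460, AT3G33081, AT3G42257 and AT3G30703, with 15.4%, 14.4%, 13.6% and 13.3%. AT3G30703 had 24.5 and 30.1 CPM in the controls against 48.3 and 147 in the mutants. Its log2 fold change was 1.83 ± 0.56 (SE), and 0.84 without PORI rpt2a replicate 2. The largest share outside 21, 22 and 24 nt was 53.5% in AT3G42875, followed by 41.4% in AT3G30440, 34.4% in AT3G48526, 32.1% in AT3G42433 and 32.0% in AT3G44045. AT3G42875 had 7.94 and 5.67 CPM in the controls against 6.76 and 11.0 in the mutants, and its groups overlapped.

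Along the arms the leading member of a window was lower in both mutant libraries or overlapped between the groups, with 1 exception. AT3G05415 had 22.4 and 25.7 CPM in the controls against 19.7 and 16.1 in the mutants, with a log2 fold change of -0.41 ± 0.31 (SE). AT3G57586 had 51.0 and 41.7 CPM in the controls against 42.6 and 27.1 in the mutants, and AT3G50625 had 48.5 and 34.3 against 43.9 and 26.6. AT3G60565, with 33.2 and 41.4 CPM in the controls against 35.5 and 40.6 in the mutants, overlapped between the groups. The exception was AT3G15600 in the upper arm, with 13.1 and 14.1 CPM in the controls against 16.8 and 28.1 in the mutants, and a log2 fold change of 0.71 ± 0.38 (SE). AT3G11970 and AT3G24675 overlapped, and the last member of the chromosome, AT3G62725, had 23.998 and 19.98 CPM against 17.7 and 14.6. Near the lower border of the pericentromere, AT3G45253 had 53.8 and 52.5 CPM in the controls against 62.5 and 57.2 in the mutants. Near its centre the window from 35000 was led by AT3G38525, with 36.7 and 36.5 CPM in the controls against 80.2 and 82.3 in the mutants.

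The 8 members with a symbol belong to 2 families. SADHU elements are small non-autonomous retroposons of Arabidopsis, and MUG1 and MUG5 are MUSTANG genes, derived from transposases of Mutator-like elements and kept as plant genes. AT3G02515, named SADHU6-1, is the first member of the chromosome and had 86 and 62 counts in the controls against 51 and 15 in the mutants, with a log2 fold change of -0.84 ± 0.35 (SE) and an edgeR adjusted p of 0.230. SADHU7-2 in the pericentromere was higher in both mutant libraries, with 6 and 5 counts in the controls against 13 and 8 in the mutants, while SADHU3-1 had 34 and 14 against 30 and 3. SADHU7-1 had 10 and 10 counts in the controls against 4 and 6 in the mutants, and SADHU10-1 had 1 and 1 against 0 and 0. MUG1 had 12 and 4 counts against 7 and 2 and MUG5 had 2 and 1 against 7 and 2, and these last 4 were too sparse to be tested. The SADHU loci did not share a direction.

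The shift in read length and the median fold change were close to those of the other chromosomes, whose loci were not split into zones. TE genes of chromosomes 1, 2, 4 and 5 together had 22 nt shares of 13.0% and 13.4% in the controls against 19.6% and 24.7% in the mutants, and 24 nt shares of 61.2% and 59.7% against 55.0% and 46.3%. A higher 22 nt share in both mutant libraries was found for 50.1% of 1528 of these loci with at least 100 counts, against 52.4% on chromosome 3. Their median log2 fold changes in edgeR were 0.44, 0.56, 0.68 and 0.59 on chromosomes 1, 2, 4 and 5, beside 0.57 on chromosome 3. Chromosome 3 gave 23.13% and 22.98% of all TE gene counts in the controls against 23.82% and 23.98% in the mutants. That difference of 0.850 percentage points did not overlap between groups and had an exact permutation p of 0.333. Nuclear genes other than TE genes had 22 nt shares of 10.7%, 10.9%, 11.3% and 10.8% in the order of libraries, with no comparable shift, while their 24 nt shares were 11.5%, 10.3%, 10.0% and 6.87%.

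The deposited TE table counts annotated elements instead of TE genes, and its 6461 chromosome 3 elements showed the shift in length but not the higher level. Their 22 nt share was 10.1% and 10.4% in the controls against 15.5% and 20.8% in the mutants, and their 24 nt share was 57.8% and 56.9% against 53.9% and 44.4%. Their summed gene-table CPM were 35509 and 27890 in the controls against 36619 and 18684 in the mutants, and the groups overlapped. With TMM-scaled sizes the sums were 29424 and 27783 against 32173 and 27068, again with overlap. The 2 tables can count the same reads, so they are not independent.

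Few reads came from the mRNAs of the silencing machinery. Of 23 such genes, 4 passed the filter on low counts, 0 passed in edgeR at an adjusted p of 0.05, and all 4 had log2 fold changes below 0, with a median of -1.01. They were DCL1 at -1.33 and AGO1 at -0.50, which make and carry microRNAs, AGO2 at -0.70, an effector of post-transcriptional silencing, and MET1 at -1.36, the maintenance methyltransferase for CG sites. The genes for the 24 nt pathway itself, among them NRPD1, RDR2, DCL3 and AGO4, had at most 10 counts in any library and were not tested. Small RNA reads of an mRNA do not measure its level.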

How the data were processed

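Small RNAs were counted in 2 libraries each of PORI and PORI rpt2a, grouped by the sample titles. The authors deposited raw counts, in 3 tables per library with 9 columns for reads of 18 to 26 nt, per the file headers. The submitters' processing notes name CASAVA 1.8.2, FastQC 0.11.2, cutadapt 1.9.1, HTSeq, DESeq2 and the build TAIR10. The aligner, the annotation release, strand use and the handling of multi-mapping reads are not given in the sources used here, so values of similar copies or of overlapping or antisense genes are uncertain.

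Counts of the whole gene table, summed over lengths and for 21, 22 and 24 nt, were fitted in R 4.3.3 with edgeR 4.0.16 (glmQLFit, 1 term for the genotype). Library sizes were TMM-scaled, genes were kept by filterByExpr at a minimum count of 10 and a minimum total of 15, and p-values were adjusted over all genes by Benjamini and Hochberg's method. The SE of a log2 fold change is its size over the root of the F statistic. Alternatives were DESeq2 1.42.0, other size factors and filters, a replicate block, TE genes alone, other zones, other denominators and leaving out each library. The edgeR step was tested on simulated data. Sums and shares were computed in Python 3.11.15 with pandas 2.3.3, and set against each other by exact permutation (two-sided). Levels are CPM of the gene table unless TMM scaling is named, and CPM of single loci are TMM-normalised. Total counts over the 3 tables were 3241463 to 5884528 per library. Symbols came from a RefSeq table of TAIR10.1, matched by locus tag, from which no coordinates or lengths were taken. No sequence is shown.

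Named members were the 10 most abundant, the 5 largest positive and 5 largest negative fold changes among members whose groups do not overlap, the 5 with the highest 21, 22 or 24 nt share and the 5 with the largest share of other lengths (at least 100 counts), the most abundant of each window, the first and the last. The members with a symbol were added, and no member passed the adjusted threshold. The members, zones and lists were chosen with earlier results of these data known. Windows of 1000 locus numbers, and zone levels and zone signs under other settings, were added after the data were seen.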

Additional observations from a re-analysis of the deposited data

How the results depend on the processing

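With 2 libraries per group, 0 members passed edgeR's adjusted threshold for any read length, and that count changed with the setting; the cause was not tested. The percentage of all genes of the same fit that were called, with genes lacking an adjusted p in the denominator for DESeq2, stands in brackets. For all lengths there were 66 calls with no low-count filter (2.29%), 25 with size factors and tests within TE genes (6.47% of TE genes; 14 higher and 11 lower in PORI rpt2a), 70 with DESeq2 (1.53%), and 0 to 203 with each library left out. The 203 were found without PORI rpt2a replicate 1, when 26.6% of all genes were called, and 184 without replicate 2, when 14.5% were. For 21 nt there were 18 calls with scaling to the total of the 3 tables (10.1%), 4 with no filter (0.427%), 4 within TE genes (8.41%) and 0 to 30 with each library left out (33.2% at 30). For 22 nt there were 97 with total scaling (26.3%), 20 with no filter (1.01%), 15 within TE genes (7.52%), 5 with DESeq2 (0.239%) and 0 to 44 with each library left out (30.4% at 44). For 24 nt there were 64 with no filter (2.64%), 10 with DESeq2 (0.489%) and 0 to 163 with each library left out (33.9% at 163). In a fit that leaves out a library, the lone library of its group is assumed to vary like the others.

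With the replicate number as a block, 83 members were called for all lengths (81 higher and 2 lower in PORI rpt2a), 9 for 24 nt and 0 for 21 and 22 nt, against 7.35% and 1.99% of all genes for all lengths and 24 nt. The labels do not tie replicate numbers to a shared batch, and the deviations of same-numbered libraries correlated at 0.158 over 8110 genes and 0.116 over the 644 members. With 2 pairs this does not settle whether the numbers pair the libraries.

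The 24 nt share of the pericentromere minus the arms turned from -2.90 to 1.83 percentage points with the zone from 31000 to below 45000. With each library left out, the log2 difference of summed level ranged from -1.05 to 0.062 in the upper arm and from -0.84 to 0.051 in the lower arm. The differences in the 21, 22 and 24 nt shares, in the pericentromere share and in chromosome 3's share of TE gene counts kept their sign in every alternative run.

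Of 50 named members tested, 37 kept their sign in every alternative and 13 did not. Within TE genes the log2 fold change was -0.45 for AT3G11970, -0.23 for AT3G42875, -0.41 for AT3G45253 and -0.55 for AT3G60565. With total scaling it was -0.051 for AT3G45253 and -0.21 for AT3G60565, which also had -0.013 with no filter and -0.019 with at least 50 counts. With each library left out it ranged from -0.50 to 0.60 for AT3G11970, -0.53 to 0.19 for AT3G24675, -1.89 to 0.12 for AT3G29187, -0.012 to 0.68 for AT3G42875, -0.62 to 0.19 for AT3G43205, -0.99 to 0.67 for AT3G43370, -0.71 to 0.13 for AT3G43730, -1.66 to 0.20 for AT3G44042 (SADHU3-1), -0.86 to 1.36 for AT3G46382, -0.62 to 0.10 for AT3G48526, -0.64 to 0.091 for AT3G50625 and -0.12 to 0.20 for AT3G60565.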
